A study of Homo sapiens with 6 samples.

Results

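The probes for hsa-miR-146a-5p, hsa-miR-9-5p, hsa-miR-21-5p and hsa-miR-155-5p (the species prefix is left out from here on), 4 of the 798 human miRNA probes of an nCounter panel, were compared between APE1-depleted and control A549 cells. They were picked by name, as miRNAs linked to the transcription factor NF-kB, by a rule that uses no measured value, although earlier results of these data were known when they were picked. A549 is a human lung adenocarcinoma cell line. The cells of 3 libraries were transfected for 72 h with 100 pmol of a single siRNA against APE1 (siAPE1), and those of 3 further libraries with 100 pmol of a scramble control siRNA (siSCR). The design is a transient knockdown with 1 siRNA sequence in 1 cell line, and the extent of the depletion cannot be read from the panel, which has no probe for APEX1 mRNA. Separate cultures are not named in the labels (the study's text refers to biological replicas), so each p-value covers the spread between these samples only, which may be technical.

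NF-kB is held in the cytoplasm by inhibitor proteins and, once these are degraded, enters the nucleus and switches on genes of inflammation and survival. APE1, the endonuclease of base excision repair, is also known as Ref-1, a redox factor that keeps subunits of NF-kB and other transcription factors in the reduced, DNA-binding form. The 4 miRNAs are known transcriptional targets of NF-kB signalling in immune or epithelial cells. miR-146a closes a feedback loop on the adaptors IRAK1 and TRAF6, miR-9 represses NFKB1 mRNA and is best known as a neuronal miRNA, miR-21 represses the tumour suppressor PDCD4, and miR-155 represses SOCS1 and the phosphatase INPP5D in leukocytes.

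Their mature sequences (RefSeq, GRCh38.p14) are given with the seed, bases 2 to 8, in capitals, because the seed sets target choice and shows which other panel miRNAs belong to the same family.
miR-146a-5p: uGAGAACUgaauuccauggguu
miR-9-5p: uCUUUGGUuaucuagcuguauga
miR-21-5p: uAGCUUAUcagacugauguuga
miR-155-5p: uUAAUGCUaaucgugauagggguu
miR-146b-5p: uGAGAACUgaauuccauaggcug
miR-590-5p: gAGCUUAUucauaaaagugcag
The last 2 are the panel miRNAs that share a seed with a member: miR-146b-5p with miR-146a-5p, and miR-590-5p with miR-21-5p. miR-146b-5p has the first 17 bases of miR-146a-5p in common and differs over the shared length by G18A and U21C (miR-146a-5p base first, counted from 1 at the 5′ end). The seeds of miR-9-5p and miR-155-5p were found in no other mature miRNA of the table. No probe on the panel is for the other arm of any of the 4 precursors.

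miR-146a-5p lies at chr5:160485372-160485393 (plus strand) within the non-coding host gene MIR3142HG. miR-21-5p lies at chr17:59841273-59841294 (plus strand) within VMP1, and miR-155-5p at chr21:25573983-25574006 (plus strand) within MIR155HG, its own non-coding host. miR-9-5p is identical at 3 loci, MIR9-1 (chr1:156420392-156420414, minus strand), MIR9-2 (chr5:88666902-88666924, minus strand) and MIR9-3 (chr15:89368032-89368054, plus strand), so its probe cannot tell which locus gave the signal. The annotation used gives gene spans and not exons.

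The assay counts barcoded probes without amplification. The siAPE1 libraries held 312152 to 331524 counts in total and the siSCR libraries 370087 to 488407. Raw counts were divided by a scaling factor per library, from its positive controls and 5 housekeeping mRNAs, which ran between 0.817 and 0.958 in siAPE1 and between 0.884 and 1.34 in siSCR. A miRNA was tested when its raw count lay above the background limit, the mean plus 2 SD of the 8 negative controls, in at least 3 libraries. The limit was 63.3 to 75.8 raw counts in siAPE1 and 53.1 to 70.6 in siSCR, and 152 miRNAs were tested. Of these, 92 (60.5%) passed an adjusted p of 0.1 in edgeR's quasi-likelihood test with Benjamini-Hochberg adjustment, 15 higher (9.87%) and 77 lower (50.7%) in siAPE1, and the median log2 fold change was −0.34. Of 10 epithelial marker miRNAs, 6 were above the limit in at least 1 library and 3 in all 6, with summed scaled counts of 578 to 686 in siAPE1 and 866 to 991 in siSCR, while miR-141-3p, miR-429, miR-203a-3p and miR-205-5p were never above it. Of 8 blood-cell markers 6 were never above the limit, the myeloid miR-223-3p and erythroid miR-451a among them, and the summed scaled counts of the list were 433 to 480 in siAPE1 and 415 to 508 in siSCR. The blood-cell marker miR-342-3p was above it in all 6 libraries (207 to 356 raw counts), and miR-142-3p in 1 siSCR library. Of 5 mesenchymal or endothelial markers 4 were never above it, while miR-126-3p was above it in all 6 libraries (341 to 838 raw counts). The part of these marker differences in the results on the members was not tested.

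Under the positive-control and housekeeping scaling, miR-146a-5p was about 2.00-fold or more lower in siAPE1. This is a bound without sampling error, given because its siAPE1 counts were below the background limit. miR-9-5p was 24.9% lower, a difference close to that of the median of the 152 tested miRNAs, though not of wider sets. miR-21-5p, the member with the highest counts, was 15.01% lower and did not pass the test, and miR-155-5p did not exceed the background limit in any library. Of the 3 members that could be tested, 2 passed the threshold, both lower in siAPE1, against 60.5% of all tested miRNAs past the threshold and 50.7% past it and lower. miR-146a-5p entered the test through its siSCR counts alone, so this count supports nothing about the members as a group. The within-library ratios of the members, the test of differences between them, had adjusted p-values of 0.15 to 0.2 (exact permutation test). With 3 libraries against 3 no unadjusted p below 0.1 is possible, so these values cannot settle whether the members differ.

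miR-146a-5p, the feedback miRNA of the Toll-like receptor pathway, had raw counts of 67, 54 and 58 in siAPE1 replicates 1 to 3, against 146, 196 and 153 in siSCR replicates 1 to 3. Scaled counts were 70.0, 56.5 and 70.9 in siAPE1 and 129, 146 and 173 in siSCR, with means of 65.8 ± 8.04 in siAPE1 and 149.5 ± 22.1 in siSCR (SD, n = 3 each). The lowest control library was thus well above the highest APE1-depleted library. The 3 tested members all had scaled groups that did not overlap with siAPE1 lower, as did 52.6% of all tested miRNAs (7.24% were separated with siAPE1 higher, 59.9% in either direction). The log2 fold change was −1.18 ± 0.18 (SE, 95% confidence interval −1.54 to −0.82), a fitted level 55.8% lower in siAPE1 (edgeR quasi-likelihood test, Benjamini-Hochberg adjusted p = 4.37e-09). An exact two-sided permutation test of its scaled counts gave p = 0.1, the smallest possible here, as it also did for miR-21-5p, which edgeR did not call. Because the siAPE1 counts were not above background, the size is given only as a bound of about 2.00-fold or more, which holds for this scaling. The bound is a ratio of group means with no sampling error, and the 95% confidence interval of the fitted value reaches a smaller fall, −0.82. The fitted log2 fold change ran from −1.59 to −0.81 over 11 scalings, and no bound was computed for the others. The counting error of a single count was 12.2% to 13.6% in siAPE1 and 7.14% to 8.28% in siSCR, against replicate CVs of 12.2% in siAPE1 and 14.8% in siSCR.

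Background bears on this fold change. miR-146a-5p passed the filter through the control group alone: it was below the limit in 3 of 3 siAPE1 libraries and at 2.25 to 2.78 times the limit in the siSCR libraries. With the siAPE1 level set at the limit, miR-146a-5p was about 2.00-fold lower in siAPE1 under the positive-control and housekeeping scaling. The siAPE1 counts were still above 7 of the 8 negative controls in each library, the exception being the same control (NEG_C) each time. With the limit computed without NEG_C, 40.4 to 42.7 raw counts in siAPE1 and 27.7 to 38.3 in siSCR, miR-146a-5p was above it in all 6 libraries. Its log2 fold change was −1.18 ± 0.18 both over the 289 miRNAs tested with that limit and over all 798 without a filter (edgeR adjusted p = 4.51e-09 and 4.95e-09). After subtraction of the negative-control mean, 35.75, 25.9 and 30.5 raw counts were left in siAPE1 and 121.5, 166.75 and 126.9 in siSCR, which, scaled, amounts to a level 72.9% lower in siAPE1. A test of the subtracted counts gave a log2 fold change of −1.89 ± 0.24 (edgeR quasi-likelihood test, Benjamini-Hochberg adjusted p = 1.06e-12). Subtracting a similar background from a lower and a higher count enlarges their ratio, so this value is not separate support for the direction. The siAPE1 level of this miRNA therefore depends on how much of its count is taken as background. Its direction did not change in any of the 23 alternatives it could be tested under, all of which reuse these same libraries. They gave log2 fold changes of −2.04 to −0.81 and an adjusted p of at most 0.000306. The signature of candidate miRNAs in the study holds miR-146a and miR-24 and was drawn from miRNAs called in this same experiment, together with other sources, so that it is not independent evidence of their direction here. In a separate knockdown experiment, the study reported by qRT-PCR the same directions for the signature. The signature miRNAs that fell were reported to rise under APE1 overexpression. The study also reported higher miR-146a and miR-24 in lung tumours with high APE1. With APE1 inhibitors, it described both as seemingly under the redox function of APE1, but the result for miR-146a as opposite to that of depletion.

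miR-146b-5p, its paralog from another chromosome (chr10:102436520-102436542, plus strand), had raw counts of 32, 23 and 31 in siAPE1 and 31, 32 and 20 in siSCR. These counts were below the limit in all 6 libraries, and the groups overlapped.

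**Figure D1:**
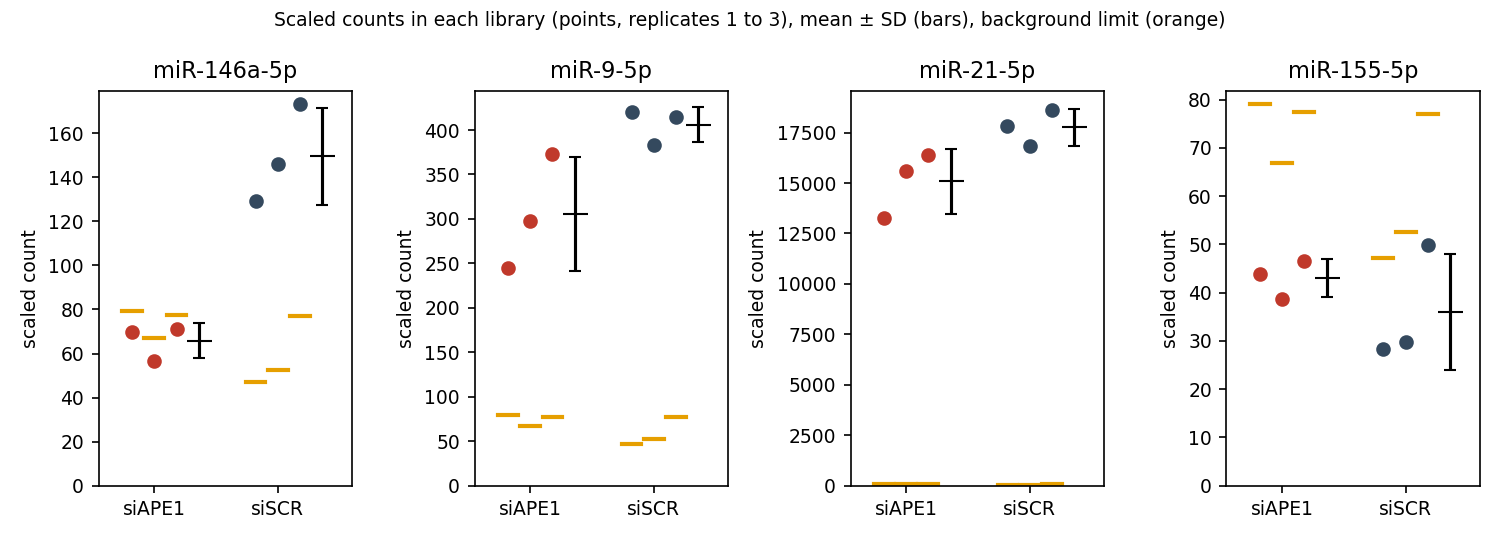
Scaled counts (raw count over the library's scaling factor, linear axis from 0) of the 4 miRNAs in the 3 siAPE1 libraries (red) and the 3 siSCR libraries (dark blue), with mean ± SD as bars and each library's background limit, scaled alike, as an orange line. miR-146a-5p lies under the limit in siAPE1 and above it in siSCR, miR-9-5p and miR-21-5p lie above it in all 6 libraries, and miR-155-5p lies below it in all 6.

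miR-9-5p had raw counts of 235, 284 and 305 in siAPE1 and 474, 514 and 366 in siSCR, all above the limit. Scaled counts were 245, 297 and 373 in siAPE1 and 420.03, 383 and 414 in siSCR, with means of 305 ± 64.2 in siAPE1 and 406 ± 19.7 in siSCR (SD, n = 3 each). The groups were separated by the narrow gap between siAPE1 replicate 3 and siSCR replicate 2, and the siAPE1 libraries were the more spread, with a CV of 21.0% against 4.87% in siSCR. miR-9-5p was lower in siAPE1 by a log2 fold change of −0.41 ± 0.17 (SE, 95% confidence interval −0.74 to −0.08), or 24.9% (edgeR quasi-likelihood test, Benjamini-Hochberg adjusted p = 0.0281). An exact two-sided permutation test of the scaled counts gave p = 0.1, the smallest that 3 libraries against 3 allow.

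The call for miR-9-5p was lost without siAPE1 replicate 1 (−0.28, adjusted p = 0.189 in edgeR) and without siAPE1 replicate 2 (−0.39, adjusted p = 0.124), as well as under 6 of the 10 other scalings (adjusted p of 1.53e-06 to 0.599 over all 24 alternatives). As a share of all miRNA counts it was 0.121%, 0.135% and 0.155% in siAPE1 against 0.177%, 0.156% and 0.142% in siSCR, and on that scale the groups overlapped.

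miR-21-5p, an oncomiR and one of the strongest signals on the panel, had raw counts of 12726, 14874 and 13415 in siAPE1 and 20118, 22558 and 16456 in siSCR. Only 2 or 3 miRNA probes had higher counts in each library. Scaled counts were 13287, 15576 and 16410 in siAPE1 and 17827, 16820 and 18620 in siSCR, with means of 15091 ± 1617 in siAPE1 and 17756 ± 902 in siSCR (SD, n = 3 each). The groups did not overlap, siAPE1 replicate 1 was the lowest library, and the highest siAPE1 library was close to the lowest siSCR library.

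The log2 fold change of miR-21-5p was −0.23 ± 0.16 (SE) and did not pass (edgeR quasi-likelihood test, Benjamini-Hochberg adjusted p = 0.196). Its 95% confidence interval, −0.55 to 0.08, runs from a level 31.6% lower to one 5.66% higher in siAPE1. At this depth counting error was 0.82% to 0.886% in siAPE1 and 0.666% to 0.780% in siSCR, far less than the replicate CVs of 10.7% in siAPE1 and 5.08% in siSCR. Under TMM the SE of the fold change was 0.0819, and under scaling by total miRNA counts it was 0.0783. As a share of miRNA counts miR-21-5p held 6.53%, 7.05% and 6.82% in siAPE1 and 7.504%, 6.83% and 6.40% in siSCR, and these ranges overlapped. With TMM, the median of ratios or the 100 most abundant miRNAs as the scaling, its fold change had the opposite sign and did not pass. It passed as lower with positive controls only (−0.66, adjusted p = 4.91e-05), RPL19 alone (−0.32), RPLP0 alone (−0.28), in the deposited table (−0.52) and with the replicate number as a block (−0.24, edgeR adjusted p = 0.0721).

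miR-590-5p, which carries the miR-21 seed and is encoded within EIF4H (chr7:74191213-74191234, plus strand), had raw counts of 59, 61 and 45 in siAPE1 and 82, 86 and 76 in siSCR. It was below the limit in all 3 siAPE1 libraries and above it in all 3 siSCR libraries. Its log2 fold change, −0.28 ± 0.17 (SE), did not pass (edgeR quasi-likelihood test, Benjamini-Hochberg adjusted p = 0.147), and it passed the filter through the control group alone.

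miR-155-5p had raw counts of 42, 37 and 38 in siAPE1 and 32, 40 and 44 in siSCR, which sum to 117 in siAPE1 and 116 in siSCR. Each count was below the limit of its library, at 0.554 to 0.6002 times the limit in siAPE1 and 0.567 to 0.647 times in siSCR, although it lay above 6 or 7 of the 8 negative controls. Scaled counts were 43.9, 38.7 and 46.5 in siAPE1 and 28.4, 29.8 and 49.8 in siSCR, with means of 43.0 ± 3.93 in siAPE1 and 35.99 ± 11.97 in siSCR (SD, n = 3 each), and the groups overlapped because siSCR replicate 3 was the highest of all. An exact two-sided permutation test of the scaled counts gave p = 0.4. A difference in miR-155-5p was not detectable above the negative-control background of these libraries. The negative-control mean left 10.75, 8.88 and 10.5 raw counts in siAPE1 and 7.5, 10.75 and 17.9 in siSCR, too few for a fold change. With the limit computed without NEG_C, miR-155-5p was above it in 1 siAPE1 and 2 siSCR libraries and had a log2 fold change of 0.29 ± 0.23 (edgeR quasi-likelihood test, Benjamini-Hochberg adjusted p = 0.327).

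**Figure D2:**
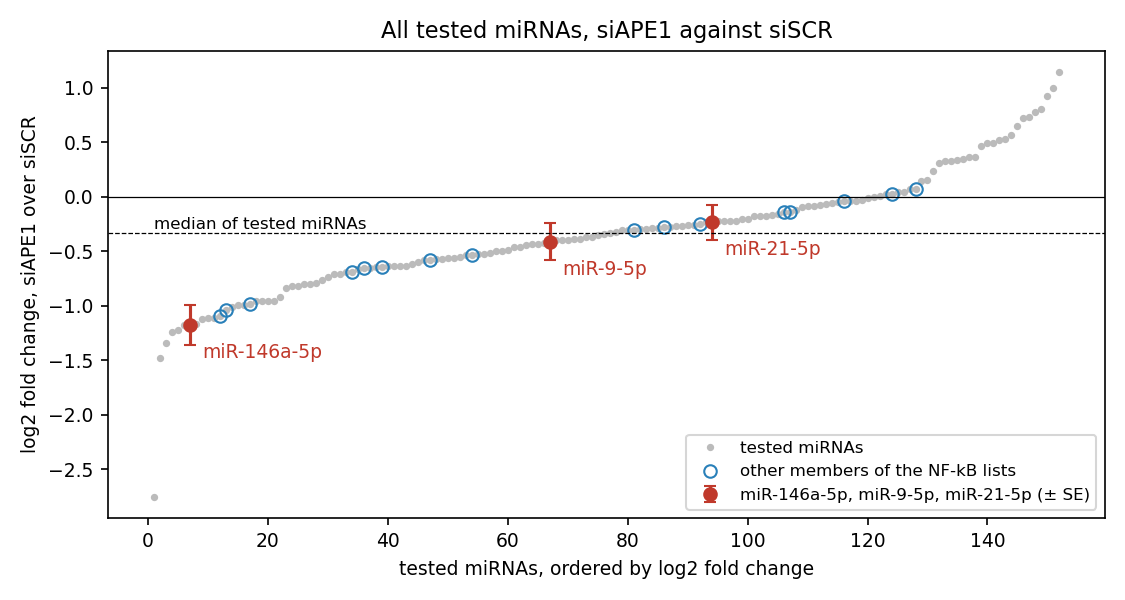
Log2 fold changes (siAPE1 over siSCR, y axis) of the 152 tested miRNAs in ascending order (x axis), with the members in red (± SE), other members of the NF-kB lists as open blue circles and the median of −0.34 as a dashed line. miR-146a-5p, whose siAPE1 counts were below the background limit, is drawn at its fitted value, at rank 7 from the lowest, while miR-9-5p at rank 67 and miR-21-5p at rank 94 lie on either side of the median.

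Because a majority of the 152 tested miRNAs were lower, the members were also set against the median miRNA. The filter admits miRNAs above the limit in siSCR alone, miR-146a-5p among them, and the median depends on it. The median was −0.34 over the 152, −0.04 over the 289 tested with the limit without NEG_C, and 0.22 over all 798 without a filter. On the log2 scale and relative to the median, miR-146a-5p lay at −0.84, miR-9-5p at −0.07 and miR-21-5p at 0.10. Over 11 scalings the fold change of miR-146a-5p ran from −1.59 to −0.81 and passed in all 11. A scaling moves all miRNAs of a library alike, so the distance from the median is nearly fixed over scalings (−0.848 to −0.836 for miR-146a-5p), and its value moved where the background or the miRNAs tested changed, to −1.44 after background subtraction, −1.30 in the deposited table and −1.40 without a filter. The fold change of miR-9-5p ran from −0.86 to −0.07 and passed in 5 of 11, with a distance of −0.109 to −0.0651. For miR-21-5p it ran from −0.66 to 0.12 and passed in 3 of 11, with a distance of 0.0887 to 0.108. Both distances also changed with the miRNAs tested. Over the 289 miRNAs tested with the limit without NEG_C they were −0.372 for miR-9-5p and −0.195 for miR-21-5p. Without a filter they were −0.629 and −0.452, so the place of both near the median does not hold in these wider sets.

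**Figure D3:**
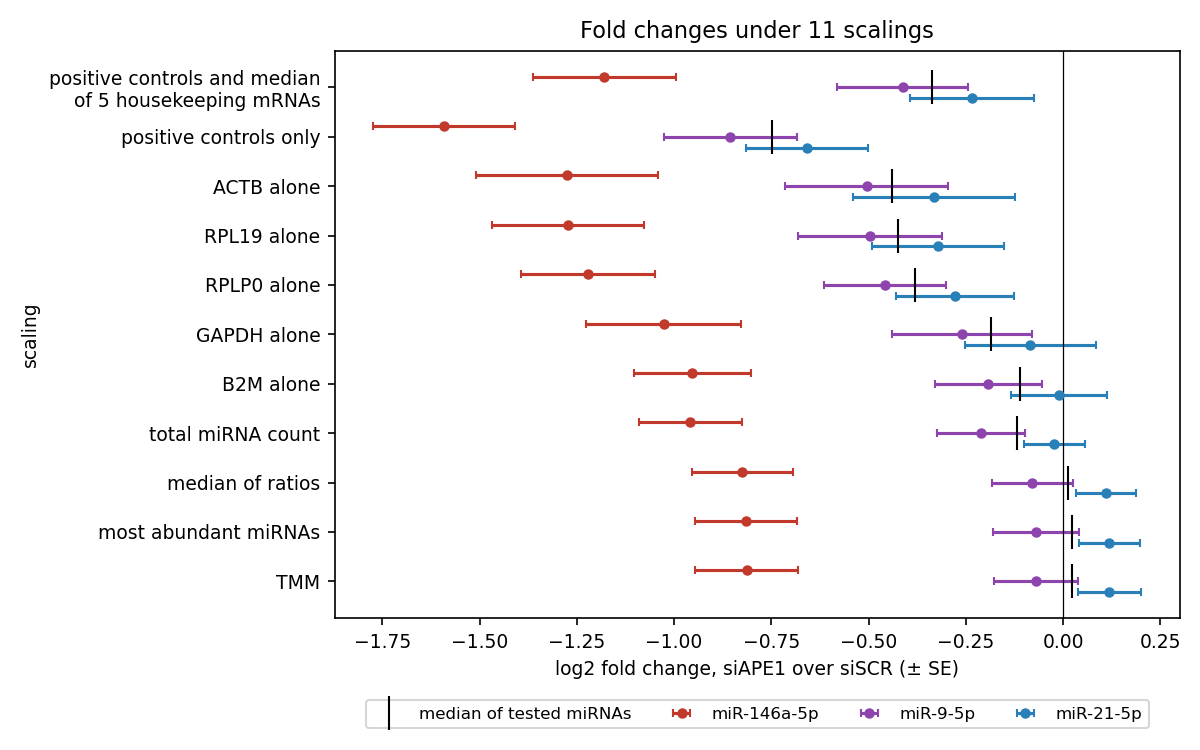
Log2 fold changes (siAPE1 over siSCR, ± SE, x axis) of miR-146a-5p (red), miR-9-5p (purple) and miR-21-5p (blue) under 11 ways of scaling the libraries (y axis), with the median of the tested miRNAs as a black tick. The members move sideways with the median, miR-146a-5p stays below −0.81 throughout, and miR-21-5p crosses 0 under 3 scalings.

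Ratios between members within a library need no scaling factor at all, and 3 were computed on counts from which the negative-control mean had been taken off. For every 100 counts of miR-21-5p there were 0.282, 0.174 and 0.228 counts of miR-146a-5p in siAPE1 and 0.605, 0.740 and 0.772 in siSCR. Every control library was higher than every APE1-depleted one, and the mean log2 ratio was −8.80 ± 0.35 in siAPE1 and −7.15 ± 0.19 in siSCR (SD, n = 3 each), a difference of −1.65 (exact two-sided permutation test, p = 0.1, the smallest possible, and 0.15 after Benjamini-Hochberg adjustment over the 3 ratios). The siAPE1 counts of miR-146a-5p were below the background limit, and without background subtraction this difference was −0.94.

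For every 100 counts of miR-9-5p there were 17.5, 10.1 and 10.99 counts of miR-146a-5p in siAPE1 and 27.0, 34.4 and 37.3 in siSCR. These groups did not overlap either, with a log2 difference of −1.38 (exact permutation p = 0.1, adjusted 0.15), and −0.75 without background subtraction. miR-9-5p against miR-21-5p came to 1.605, 1.72 and 2.07 per 100 in siAPE1 and 2.24, 2.15 and 2.07 in siSCR. Here the groups met at siAPE1 replicate 3 and siSCR replicate 3, and the log2 difference was −0.27 (exact permutation p = 0.2, adjusted 0.2). The counts of different probes also depend on how well each probe captures its miRNA, so the ratios compare libraries and not the amounts of the 2 miRNAs.

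**Figure D4:**
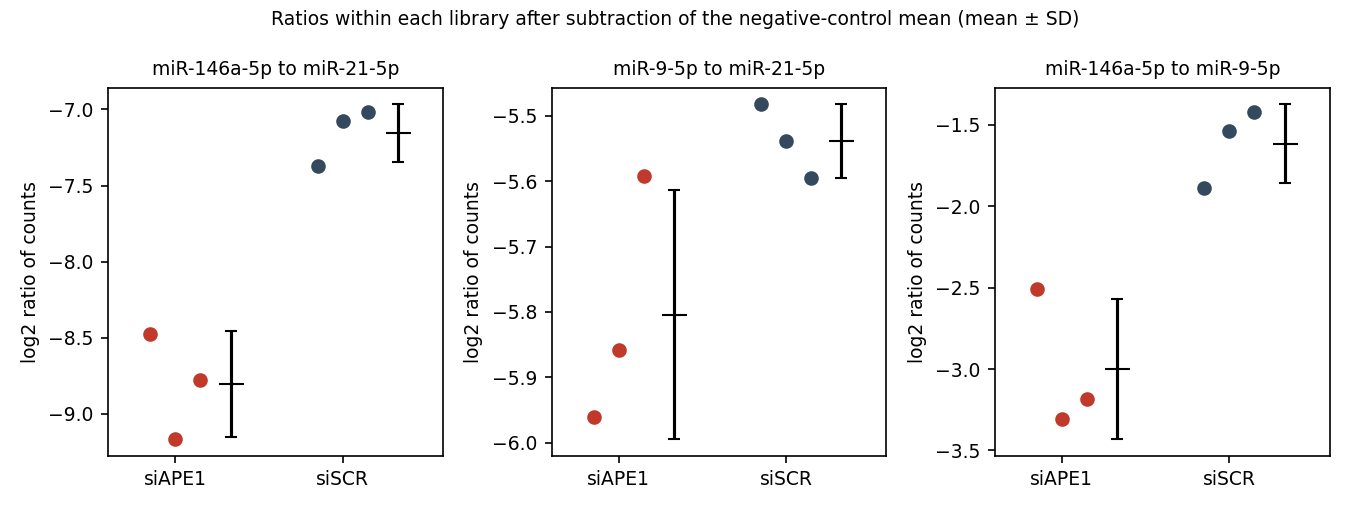
Log2 ratios of 2 members within each library after subtraction of the negative-control mean (y axes, each with its own range), for the 3 siAPE1 libraries (red) and the 3 siSCR libraries (dark blue), with mean ± SD. Both ratios with miR-146a-5p on top are separated between the groups, while miR-9-5p to miR-21-5p overlaps.

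Other miRNAs tied to the pathway were counted from 2 lists. Of 13 miRNAs reported to be induced by NF-kB, the 4 members among them, 10 were tested: 6 were lower in siAPE1, 0 higher, and 4 did not pass, with a median log2 fold change of −0.47. Of 15 panel miRNAs reported to target components of the pathway, 9 were tested: 4 were lower, 0 higher and 5 had an adjusted p above the threshold, and the median was −0.25. Together 10 of 19 tested miRNAs were lower, with a median of −0.41, against 50.7% lower and a median of −0.34 over all tested miRNAs. Leaving the 4 members out, 8 of 16 were lower. The share is near the background, and nothing particular to the lists was read from it.

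In the induced list the largest falls after miR-146a-5p were in miR-24-3p and miR-27b-3p. miR-27b-3p comes from a cluster with miR-23b and a copy of miR-24, while mature miR-24-3p is also made from another locus, in a cluster with miR-23a and miR-27a, so its probe cannot tell which cluster gave the signal. miR-24-3p had 1452 ± 231 scaled counts in siAPE1 and 2880.2 ± 343 in siSCR (SD, n = 3 each), a log2 fold change of −0.99 ± 0.18 (SE, edgeR adjusted p = 7.56e-07). miR-27b-3p had 5874 ± 796 in siAPE1 and 9267 ± 1218 in siSCR, a log2 fold change of −0.66 ± 0.17 (adjusted p = 0.000462). Both were thus also below the median miRNA, though by less than the fitted value of miR-146a-5p, whose siAPE1 counts were below the background limit. The difference from miR-146a-5p was not tested.

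Among miRNAs that target the pathway the largest falls were in miR-301a-3p, known to repress the NF-kB repressing factor NKRF, miR-182-5p, known to repress the deubiquitinase CYLD, and miR-126-3p, an endothelial miRNA reported to repress the inhibitor NFKBIA. miR-301a-3p had 93.9 ± 9.10 scaled counts in siAPE1 and 201 ± 20.5 in siSCR (SD, n = 3 each), with a log2 fold change of −1.10 ± 0.19 (SE, edgeR adjusted p = 7.80e-08). miR-182-5p had 102 ± 20.0 in siAPE1 and 209 ± 20.5 in siSCR, with −1.04 ± 0.19 (adjusted p = 2.72e-07), and miR-126-3p had 422 ± 36.9 in siAPE1 and 683 ± 146 in siSCR, with −0.69 ± 0.17 (adjusted p = 0.000199). The targets named for these 3 are inhibitors of NF-kB, whereas IRAK1 and TRAF6, the targets named for miR-146a-5p, lead to its activation. The 3 were named as the largest falls of their list, of which 5 tested members did not pass. No target was measured here, and an effect on the pathway was not tested. With TMM as the scaling, 8 of the 19 were lower and 5 higher in siAPE1, against 46 lower and 47 higher of all 152 tested miRNAs.

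**Figure D5:**
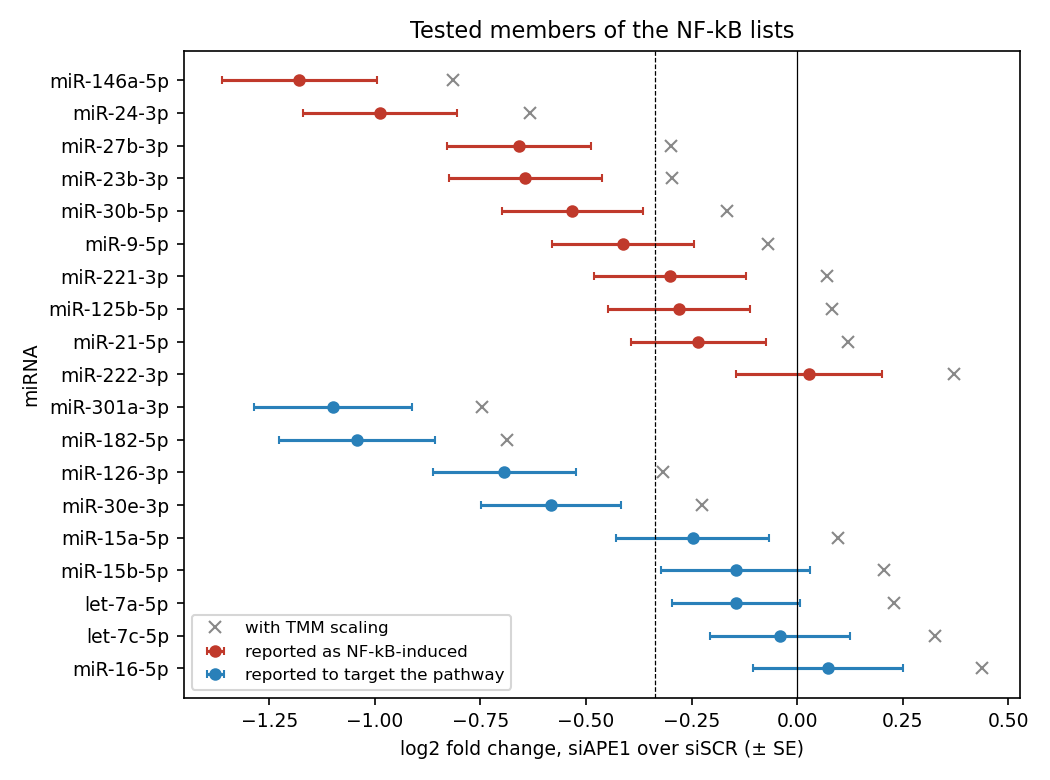
Log2 fold changes (siAPE1 over siSCR, ± SE, x axis) of the 19 tested members of the NF-kB lists (y axis), reported as induced by NF-kB (red) or as targeting the pathway (blue), with the values under TMM as grey crosses and the median of all tested miRNAs as a dashed line. miR-146a-5p and miR-301a-3p have the lowest values of their lists, and each value is higher under TMM.

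The miRNAs whose scaled counts followed each member most closely over the 6 libraries were found by the root mean square difference of centred log2 scaled counts, which includes the group difference and the scaling factors that all probes share. For miR-146a-5p they were miR-495-3p (0.0773) and miR-381-3p (0.164), both from the chromosome 14q32 cluster, and miR-182-5p (0.168), against a median of 0.464 over the tested miRNAs. For miR-9-5p they were miR-194-5p (0.0530), miR-181a-5p (0.0753) and the joint probe for miR-20a-5p and miR-20b-5p (0.0759), with a median of 0.230. For miR-21-5p they were miR-98-5p of the let-7 family (0.0441), miR-30d-5p (0.0496) and miR-106b-5p (0.0692), with a median of 0.214. No member was among the closest 3 of another: miR-21-5p and miR-9-5p differed by 0.136, miR-146a-5p and miR-9-5p by 0.443, and miR-146a-5p and miR-21-5p by 0.507. All siAPE1 counts of miR-146a-5p and miR-381-3p were below the background limit, so the values that involve either rest partly on background counts.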

How the data were processed

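Total RNA of A549 cells (100 ng per library) was profiled on the nCounter human v3 miRNA panel, and per the labels and the values the deposited files hold uncorrected raw counts. A second table deposited by the authors was read as a score: its 24 control entries equal the raw counts, and for the 126 probes of at least 30 in each library the score followed the raw count linearly, with a slope (0.761 to 1.26) and offset per probe that did not differ between libraries (largest residual 0.640), so it holds no scaling between libraries. It was used as an alternative only.

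Each library's scaling factor was its slope factor from 6 positive controls times the median ratio of its 5 housekeeping mRNAs. Groups were compared in R 4.3.3 with edgeR 4.0.16, by the robust quasi-likelihood test with scaling factors as offsets, over 152 miRNAs, with two-sided p-values adjusted by the Benjamini-Hochberg method and a threshold of 0.1. The test was checked on simulated counts. limma 3.58.1 and DESeq2 1.42.0 were alternatives, as were other scalings, background limits, each library left out and a block for the replicate number. Scaling on each housekeeping mRNA alone was added after seeing the data.

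Besides the 4 members, the text names panel miRNAs with a shared seed, up to 3 falls and 3 rises past the threshold per NF-kB list (no rise was found) and the 3 closest miRNAs of each member. The marker miRNAs named in the text were picked from their lists after their values were seen. The members and lists were chosen with earlier results of these data known. Sequences were matched by name for 705 of 798 probes, the members included.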

Additional observations from a re-analysis of the deposited data

How the results depend on the processing

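miR-146a-5p kept its direction and its side of the threshold under all 23 alternatives in which it was tested, and could not be tested when a miRNA had to be above the limit in all 6 libraries. For miR-21-5p the log2 fold change turned to 0.12 with TMM, 0.11 with DESeq2 size factors and 0.12 with the top 100 miRNAs, and passed with positive controls only (−0.66), the deposited table (−0.52), RPL19 alone (−0.32) and RPLP0 alone (−0.28). miR-9-5p no longer passed with TMM (−0.0693), DESeq2 size factors (−0.0790), total miRNA counts (−0.21), the top 100 (−0.0702), B2M alone (−0.19) or GAPDH alone (−0.26), and ran from −0.58 to −0.28 with 1 library left out. The log2 ratio of mean miR-155-5p counts was 0.26, and became 0.64, 0.63 and 0.65 with TMM, DESeq2 size factors and the top 100, and −0.11 with positive controls only. Without background subtraction the miR-146a-5p ratios differed by −0.94 against miR-21-5p and −0.75 against miR-9-5p.

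The 92 calls became 152 without a filter. The 15 higher calls became 47 with TMM, 47 with DESeq2 size factors, 47 with the top 100, 32 with total miRNA counts, 6 with positive controls only, 40 with the limit without its highest negative control, 78 without a filter, 8 in the deposited table, 9 with ACTB alone, 26 with B2M alone and 9 to 20 with 1 library left out. The 77 lower calls became 46, 50 and 46 with TMM, DESeq2 size factors and the top 100, and 128 with positive controls only. The 10 calls of the NF-kB lists became 19 with positive controls only and 16 in the deposited table. The median log2 fold change of −0.34 was 0.02 with TMM, −0.04 with the limit without its highest negative control and 0.22 without a filter. The cause of these shifts was not tested.

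The labels do not say whether equal replicate numbers pair the samples. Deviations from the group means correlated at −0.588, −0.0135 and −0.491 between same-numbered libraries, and at −0.179 to 0.612 between differently numbered ones. Such deviations include the scaling factor that all probes of a library share, so the correlations cannot decide whether the samples were paired. With the number as a replicate block 116 miRNAs passed, 20 higher and 96 lower, with −0.24 for miR-21-5p (edgeR adjusted p = 0.0721, past the threshold, against 4.91e-05 to 0.968 over its 24 alternatives), −0.43 for miR-9-5p and −1.18 for miR-146a-5p. The negative-control background limits miR-155-5p and the siAPE1 level of miR-146a-5p. The other limit is the scaling, which rests on 5 housekeeping mRNAs.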
